A study of Mus musculus with 12 samples.

Results

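Open chromatin at the genes of the proteasome was examined in hepatocyte nuclei of fasted and fed mice with ATAC-seq, an assay that reads where a transposase can insert into DNA. The peaks were those whose nearest annotated gene has a name of the form Psm, a letter from a to g, and a number. They numbered 115 of the 52530 peaks in the table and belonged to 44 gene names. Of these, 43 stand on a list of 48 proteasome subunits, assembly factors, activators and inhibitors. Psmc3ip, a partner of the DNA repair and meiosis machinery and not a proteasome subunit, was caught as well. Psma8, Psmb11, Psmc1, Psmd10 and Psmg2 were not analysed here.

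The mice were female HEP-INTACT animals, in which hepatocyte nuclei carry a genetic tag and are pulled from liver on beads. Neither the strain nor the promoter driving the tag is stated in the sources used here, and all groups carry it. In the fasted group food was absent for 16 h from ZT12, the onset of the active phase. The fed group had free access to food and was killed at the same time of day. Ages are not stated there. Of the 6 mice 3 were fasted and 3 fed, and each gave 1 library from fresh and 1 from frozen liver, 12 libraries in 4 groups of 3. About 25000 nuclei entered each reaction, and libraries held 3.69 to 14.5 M reads in peaks, if the smallest step of the deposited values is 1 read. On that reading the median proteasome gene peak held 60 to 209 reads per library, a counting error of 6.92% to 12.9%. The share of reads that fell in peaks near gene starts was 44.5% to 47.2% in fed and 47.0% to 49.4% in fasted libraries. Columns are lettered A to C, and the fresh and frozen column of 1 letter and feeding state were treated as 1 mouse.

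The proteasome is the main protease of the cytosol and nucleus and destroys proteins marked with ubiquitin. Its core, the 20S particle, is a barrel with outer rings of alpha subunits, which gate the entrance, and inner rings of beta subunits. Psmb5, Psmb6 and Psmb7 make its cutting sites, and after interferon they can be replaced by Psmb8, Psmb9 and Psmb10 to form the immunoproteasome, which favours peptides for MHC class I. The 19S cap is made of an ATPase ring (Psmc genes), which unfolds substrates, and of non-ATPase subunits (most Psmd genes), which bind, deubiquitinate and scaffold. Dedicated chaperones assemble both parts. When proteasome capacity falls short, the transcription factor NRF1, product of Nfe2l1, raises the subunit genes together through antioxidant response elements. In fasted liver autophagy breaks down much protein in bulk, while the proteasome handles short-lived and damaged proteins.

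Most genes had a peak at the start. A start was closer than 1 kb for 55 of the 115 peaks, while 60 were farther away, 38 of them by more than 10 kb. By annotation 51 were promoters, which is 44.3% beside 27.9% of all peaks, 31 were intergenic and 25 intronic. A single peak served 21 genes, and Psma1 and Psma6 had the most, 10 each. At 23 peaks the window lay in the transcript of another gene, so that the nearest start need not be the gene a peak serves. Every peak is a window of 200 bp, so levels compare between peaks per length. Windows of the same gene overlapped in 8 pairs, by 21 to 101 bases, and count as separate peaks throughout. The peak closest to the start is called the gene start peak. At Psmc2 and Psmb10 it lay 1422 and 1288 bp inside the gene. In fed mice gene start peaks ran from 49.3 ± 6.48 normalized reads at Psma2 to 427 ± 16.5 at Psme2 (SD, n = 3 mice). The median level of the 42 within 1 kb was 193, and 195 was the median over all such peaks.

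The sequence before the start is shown for genes whose start peaks carry the results that follow. Positions are those of GRCm38.p6, from RefSeq, which matches the mm10 coordinates of the peaks. Each run is the 120 bases before the annotated start, read 5′ to 3′ along the gene, with capitals at motif matches. They were chosen to show starts called for fasting, for freezing, for both and for neither, with and without a motif match. The calls in brackets are those of the gene start peak, which need not cover the printed bases. Peaks of the gene covered 0 of the 120 bases at Psmb8, 41 at Psma5 and 52 at Psmd1. They covered 93 at Psmd12, 97 at Psmd9 and all 120 at Psmb6, Psmb5 and Psmb4.
Psmd1 (chr1:86064499-86064618, plus strand, higher in fasted mice and in frozen liver, no match): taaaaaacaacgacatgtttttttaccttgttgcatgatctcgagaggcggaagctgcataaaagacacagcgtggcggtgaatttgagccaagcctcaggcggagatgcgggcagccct
Psma5 (chr3:108256806-108256925, plus strand, higher in fasted mice, no match): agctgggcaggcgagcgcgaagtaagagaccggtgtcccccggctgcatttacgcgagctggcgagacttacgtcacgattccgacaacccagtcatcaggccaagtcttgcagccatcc
Psmd12 (chr11:107479408-107479527, plus strand, higher in both, ETS match): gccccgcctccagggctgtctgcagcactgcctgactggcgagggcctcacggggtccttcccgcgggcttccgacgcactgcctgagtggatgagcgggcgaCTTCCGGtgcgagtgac
Psmd9 (chr5:123228070-123228189, plus strand, higher in both, antioxidant-type match): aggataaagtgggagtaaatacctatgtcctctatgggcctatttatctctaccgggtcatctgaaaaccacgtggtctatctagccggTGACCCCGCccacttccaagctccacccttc
Psmb8 (chr17:34198075-34198194, plus strand, lower in both, no match): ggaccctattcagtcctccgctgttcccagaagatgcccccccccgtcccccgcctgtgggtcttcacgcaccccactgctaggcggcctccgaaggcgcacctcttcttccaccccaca
Psmb6 (chr11:70525237-70525356, plus strand, higher in frozen liver and not called for fasting, antioxidant-type match): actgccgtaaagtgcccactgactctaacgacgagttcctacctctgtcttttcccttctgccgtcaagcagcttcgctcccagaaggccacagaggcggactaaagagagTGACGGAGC
Psmb5 (chr14:54617996-54618115, minus strand, called in neither, antioxidant-type match): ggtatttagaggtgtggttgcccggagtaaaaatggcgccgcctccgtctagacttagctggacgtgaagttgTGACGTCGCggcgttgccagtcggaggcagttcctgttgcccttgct
Psmb4 (chr3:94886959-94887078, minus strand, lower in frozen liver, no match): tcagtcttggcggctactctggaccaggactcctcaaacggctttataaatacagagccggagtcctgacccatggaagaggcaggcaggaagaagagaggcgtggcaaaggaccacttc
RefSeq promoter windows, 250 bases before to 50 bases after the start, were matched for 38 of the 44 genes. Psmb1, Psmb2, Psmb7, Psmc3, Psmd3 and Psmd7 were not matched. The member windows had a median GC content of 59.2% (45.7% to 77.0%) and 19.5 CpG pairs. Over the 32851 windows of the table the medians were 52.7% and 7 pairs, and over the 11054 windows of genes with a start peak here 61.0% and 21 pairs. 4 short motifs were searched on both strands. The motif CCGGAAG, bound by ETS factors, was in 14 of 38 windows or 36.8%, against 8.86% of all windows and 17.7% of those with a start peak. It was at Psmd12 among the genes printed, and also at Psma6, Psmc6, Psmd2 and Psmd6. TGACNNNGC, a core that fits antioxidant response elements, was in 6 of 38, at Psmb5, Psmb6, Psmc6, Psmd9, Psmd12 and Psme4. That was 15.8% against 12.4% of all windows and 14.8% of those with a start peak. CCAAT was in 11 of 38 or 28.9%, against 37.4% and 39.0%, and GTAAACA, bound by FOX factors, in none of the 38, against 3.65% and 2.74%. The motifs do not overlap one another at the printed starts. A match describes the letters only and is no evidence of binding. Another gene's start lay back to back within 1 kb at 6 of 38, or 15.8% against 12.4% over all. These were Psmc5 with Ftsj3, Psmd13 with Sirt3, Psma2 with Mrpl32, Psma7 with Ss18l1, Psme2 with Rnf31 and Psmb9 with Tap1. At these starts 1 peak can serve both genes.

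The main question was which of these regions differ between fasted and fed hepatocytes. At gene starts 10 peaks rose, at 6 subunits and 2 assembly chaperones of the 19S cap and 2 alpha subunits, while the immunoproteasome gene Psmb8 fell. Away from the starts more of the called windows were lower than higher, as over all distant peaks. Above 0 were 33 of the 60 values there, and 15400 of 33996 over all distant peaks. Within 1 kb of a start 10 of 55 peaks were higher in fasted mice and 1 lower, or 18.2% and 1.82%. The background over all peaks within 1 kb was 19.7% higher and 4.59% lower. Beyond 1 kb 7 of 60 were higher and 11 lower, or 11.7% and 18.3%, against 14.8% and 25.4% of all peaks there. These counts are by limma at an adjusted p under 0.05 (two-sided, Benjamini-Hochberg over all 52530 peaks) on the mean of both preparations. The median log2 difference was 0.126 near starts and 0.0383 beyond, against 0.121 and -0.0473 over all peaks. The shares and the near-start median were thus close to the background. All 6 fasted libraries lay on one side of all 6 fed libraries at 11 of the 115 peaks, 4 higher and 7 lower, or 9.57% against 12.9% of all peaks. Within fresh liver the 3 fasted libraries lay on one side of the 3 fed ones at 43 of the 115 peaks. The same held at 23698 of all 52530 peaks. Within frozen liver these counts were 49 and 23701, so such a separation is common. In pooled nuclei a shift in all of them cannot be told apart from a larger shift in some.

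The share of higher peaks rests on the scale and on single mice. When libraries were scaled to 1 common median of the near-start peaks, the median of all peaks moved from 0.048 to -0.0765. Of the 115 peaks 7 were then higher and 17 lower, in place of 17 and 12, and 3 of the higher ones were at gene starts. Over all peaks the scaled values gave 7.74% higher and 24.5% lower, in place of 16.5% and 18.1%. Without the fed letter B 8 of the 115 peaks and 4 of the start peaks were called higher, against 9.56% of all peaks. Without the fed letter A these counts were 10 and 5 (10.3% of all peaks), and without the fasted letter A 9 and 3 (9.4% of all peaks). Of the 11 called start peaks Psmd1, Psmd3 and Psma5 passed under each alternative run, and they are the 3 called higher after scaling. The Psmb8 start peak was still called lower after scaling and lost its call in other alternatives. The 10 distant windows of lowest p passed in each alternative in which they were tested, and 5 of them are among the lowest 25% of peaks and were not tested without those.

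**Figure D1:**
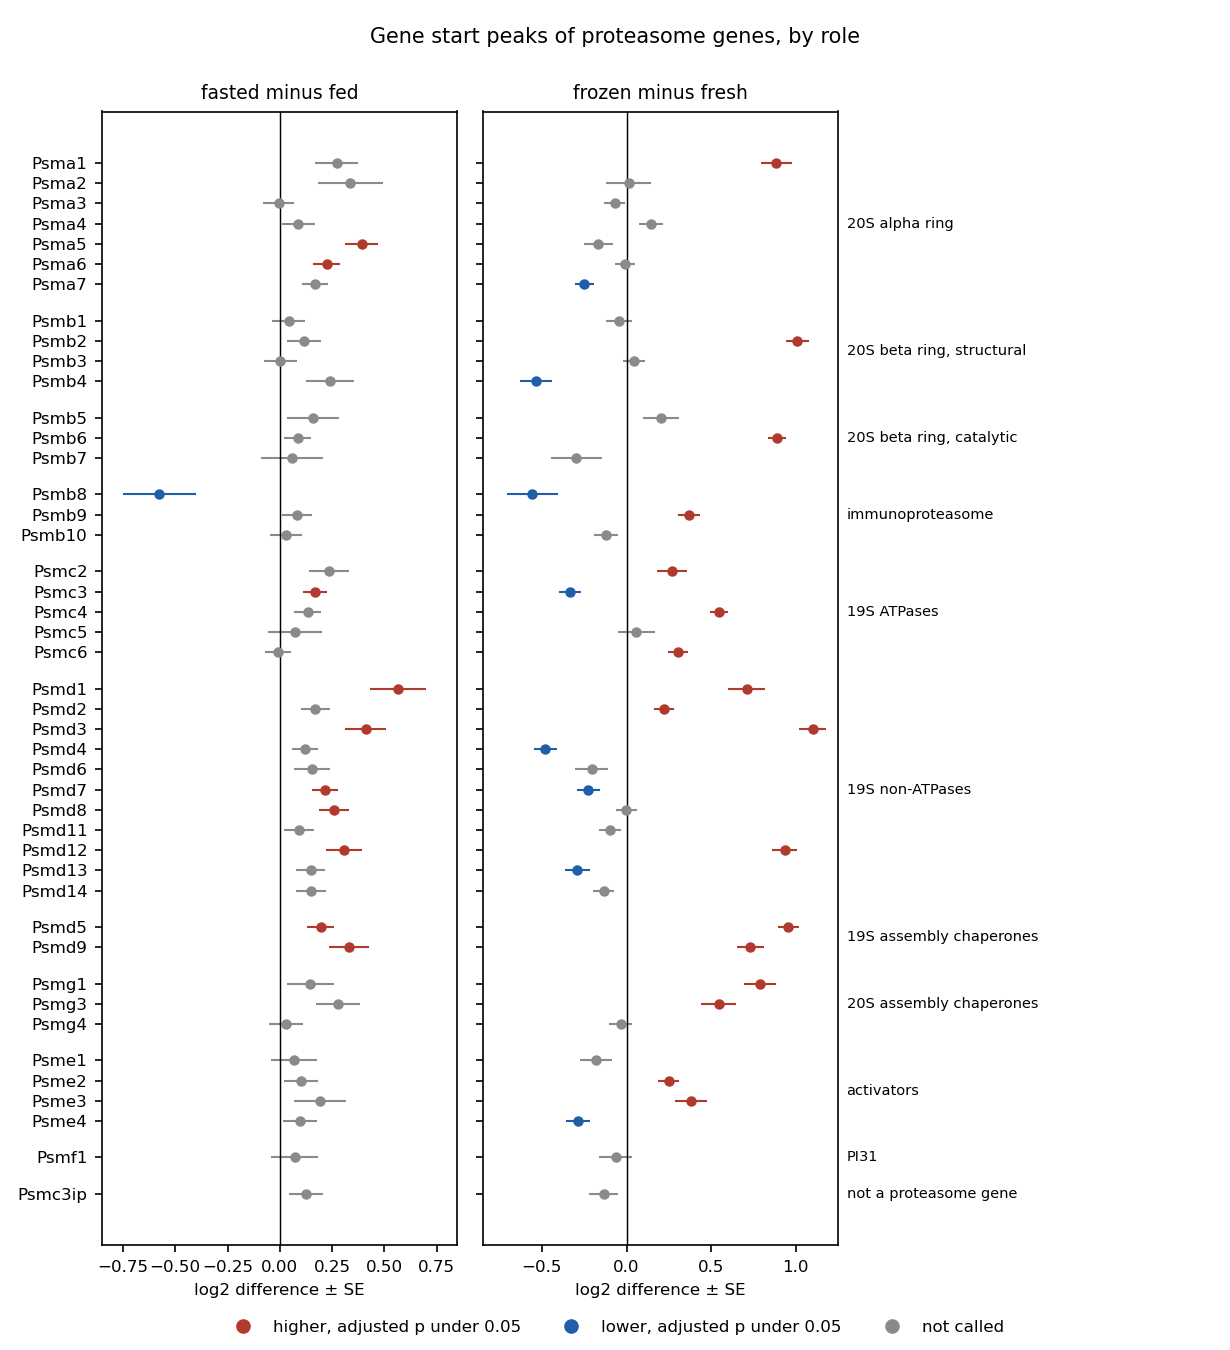
Log2 difference of each gene start peak, with its SE, for fasted minus fed mice (left, mean of fresh and frozen liver, 3 against 3 mice) and frozen minus fresh liver (right, 6 against 6 libraries), grouped by role. Red and blue points passed limma's adjusted p under 0.05. In the left panel most points lie between 0 and 0.4 and Psmb8 alone is blue at -0.58, while in the right panel neighbours of 1 role lie on both sides of 0.

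Among the 19S non-ATPase subunits 5 of 11 start peaks were higher in fasted mice and 0 lower. Over all gene start peaks within 1 kb 19.1% were higher and 3.47% lower, the background for this and the following counts by role, which are of few peaks each. Psmd1 encodes a large scaffold subunit of the base that docks ubiquitin receptors. Its start peak (chromosome 1, 86064567 to 86064767) held 53.2, 38.5 and 51.2 normalized reads in fresh fed libraries and 66.5, 71.2 and 57.6 in fresh fasted ones. In frozen liver the values were 72.7, 70.1 and 72.7 in fed and 122, 114 and 111 in fasted mice. Within each preparation all 3 fasted libraries were above all 3 fed ones. The mean rose from 59.7 ± 4.75 to 90.5 ± 5.25 reads (SD, n = 3 mice each), a log2 difference of 0.57 ± 0.13 (SE, adjusted p = 0.00969 by limma). A neighbouring window centred 264 bp before the start had 0.26 ± 0.13 and did not pass (adjusted p = 0.143 by limma).

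Psmd3 and Psmd12 encode subunits of the lid, the part that holds the deubiquitinating enzyme. The Psmd3 start peak (chromosome 11, 98682472 to 98682672) held 59.5, 58.4 and 55.2 reads in fresh fed and 76.0, 79.0 and 73.5 in fresh fasted libraries. In frozen libraries it held 118, 115 and 138 in fed and 174, 160 and 165 in fasted mice. The groups did not overlap within either preparation, and the log2 difference was 0.41 ± 0.10 (adjusted p = 0.0105 by limma). At Psmd12 (chromosome 11, 107479300 to 107479500) the mouse means rose from 210 ± 21.1 to 259 ± 14.5 reads, a difference of 0.31 ± 0.09. Its call was lost without fed A (adjusted p = 0.078 by limma) or fasted A (0.087) and after scaling to near peaks (0.141). Psmd7, another lid subunit, rose by 0.21 ± 0.06 (adjusted p = 0.0246 by limma) and Psmd8 by 0.26 ± 0.07 (0.0198). Scaled to near peaks they had 0.09 and 0.13 and did not pass (adjusted p = 0.308 and 0.172 by limma). Both calls were also lost without fed B or fasted A, and that of Psmd7 without fed A and after quantile normalization (0.0703). At Psmd8 all 6 fasted libraries (321 to 376 reads) were above all 6 fed libraries (250 to 316). The other 6 genes did not pass. They were Psmd2 at 0.17 ± 0.07, Psmd4, a ubiquitin receptor, at 0.12 ± 0.06, Psmd6 at 0.15 ± 0.09, Psmd11 at 0.09 ± 0.07, Psmd13 at 0.15 ± 0.07 and Psmd14, the deubiquitinase itself, at 0.15 ± 0.07.

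In the alpha ring 2 of 7 start peaks were higher and 0 lower. Psma5 (chromosome 3, 108256885 to 108257085) held 333, 275 and 328 reads in fresh fed and 366, 337 and 352 in fresh fasted libraries. Frozen libraries held 263, 223 and 230 in fed and 355, 330 and 410 in fasted mice. Every fasted value exceeded the fed values of its own preparation, and the gap was wider in frozen liver. The mean difference was 0.39 ± 0.08, the lowest p among the gene start peaks (adjusted p = 0.00503 by limma). At Psma6 (chromosome 12, 55398666 to 55398866) the fed libraries ran from 339 to 389 reads and the fasted ones from 392 to 501, with no overlap. The difference was 0.22 ± 0.06 (adjusted p = 0.0218 by limma), and it did not pass without fed A, B or C or fasted A (adjusted p from 0.053 to 0.076 by limma). Scaled to near peaks the difference was 0.10 and did not pass (adjusted p = 0.296 by limma). Psma1, Psma2, Psma4 and Psma7 had 0.27 ± 0.10, 0.34 ± 0.15, 0.09 ± 0.08 and 0.17 ± 0.06 without passing, and Psma3 stood at -0.01 ± 0.07.

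**Figure D2:**
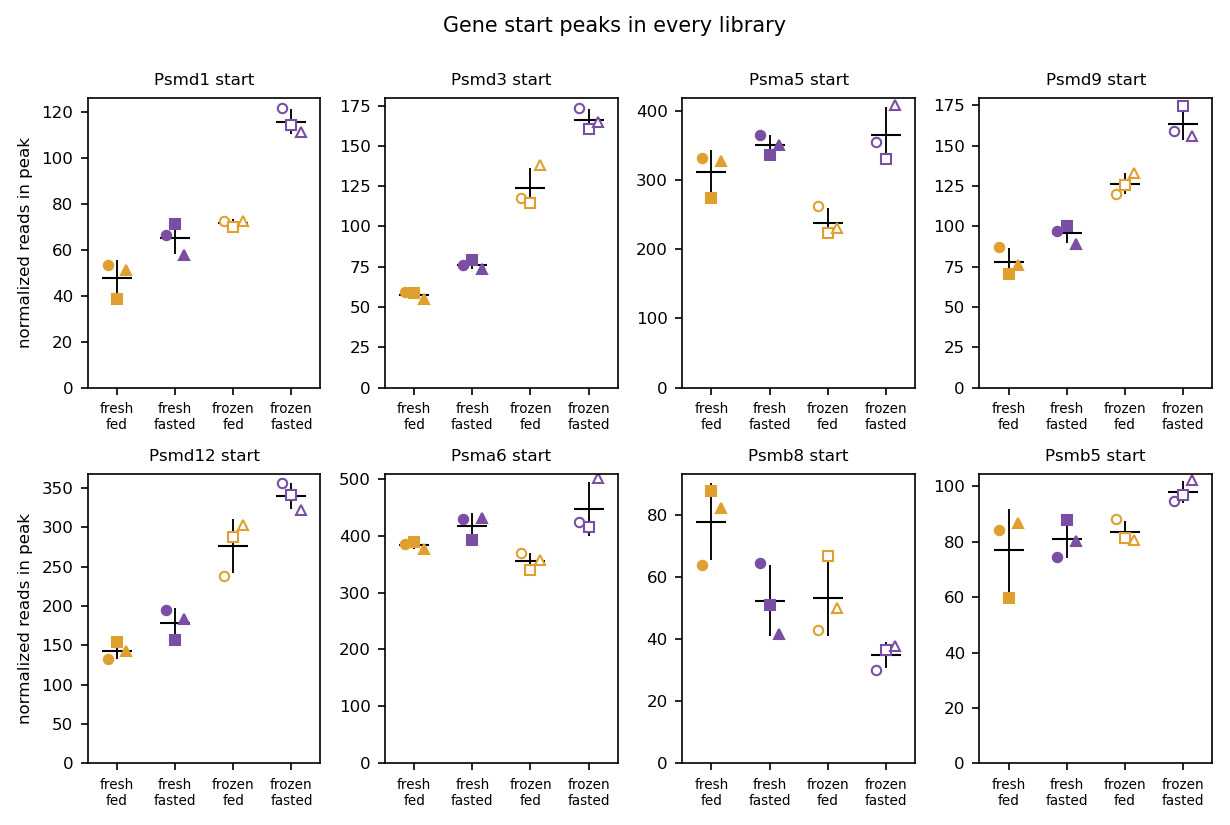
Normalized reads in 8 gene start peaks in each of the 12 libraries (circle, square and triangle for letters A, B and C, filled for fresh and open for frozen, yellow for fed and purple for fasted), with the group mean and SD as bars. At Psmd1, Psmd3 and Psma5 the fasted points lie above the fed points of the same preparation, at Psmb8 the group means lie lower in fasted mice, and at Psmb5, which was not called, the points of both feeding states overlap in fresh liver.

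Psmd9 and Psmd5 encode chaperones that hold ATPase subunits during assembly of the 19S base, and both start peaks were higher. Psmd9 (chromosome 5, 123228093 to 123228293) rose from 102 ± 3.54 to 129 ± 7.46 reads, or by 0.33 ± 0.10 (adjusted p = 0.0245 by limma). Psmd5 (chromosome 2, 34870884 to 34871084) rose by 0.20 ± 0.07 from 249 ± 12.3 to 286 ± 12.9 reads (adjusted p = 0.0417 by limma). The Psmd5 call was lost without any one of the 6 letters (adjusted p from 0.053 to 0.14 by limma) and the Psmd9 call without fed B, fasted A or fasted B (0.072 to 0.078). Scaled to near peaks Psmd5 had 0.07 (adjusted p = 0.455 by limma) and Psmd9 0.21 (0.123), and Psmd5 did not pass after quantile normalization either (0.14, adjusted p = 0.0901). Of the ATPase genes 1 of 5 start peaks was higher, Psmc3 at 0.17 ± 0.06 (adjusted p = 0.0461 by limma), a call lost without any one of the 6 letters. Psmc3 had 0.04 scaled to near peaks (adjusted p = 0.635 by limma) and 0.11 after quantile normalization (0.101). Psmc2, Psmc4, Psmc5 and Psmc6 had 0.23 ± 0.10, 0.13 ± 0.06, 0.07 ± 0.13 and -0.01 ± 0.06. The 20S assembly chaperones Psmg1, Psmg3 and Psmg4, which help to build the alpha ring, had 0.15 ± 0.11, 0.28 ± 0.11 and 0.03 ± 0.08, with 0 of 3 called.

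No start peak of the structural or the standard catalytic beta subunits passed, nor of the activators. Psmb5, which encodes the chymotrypsin-like site, held 80.1 ± 8.45 reads in fed and 89.4 ± 4.15 in fasted mice, a difference of 0.16 ± 0.12. The corresponding differences were 0.08 ± 0.07 at Psmb6 and 0.06 ± 0.15 at Psmb7, the caspase-like and trypsin-like sites. Psmb1, Psmb2, Psmb3 and Psmb4 lay between 0.00 ± 0.08 at Psmb3 and 0.24 ± 0.11 at Psmb4. Among activators, Psme1 and Psme2, which form the interferon-induced 11S cap, had 0.07 ± 0.11 and 0.10 ± 0.08. Psme3, a nuclear cap, had 0.19 ± 0.12 and Psme4, a single-chain cap, 0.10 ± 0.08. Psmf1, the inhibitor PI31, had 0.07 ± 0.11. Psmc3ip, which is not a proteasome subunit, had 0.13 ± 0.08.

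The immunoproteasome genes did not move together. Psmb8, which replaces Psmb5, was the only one of the 44 start peaks called lower. That peak lies in the annotated 5' UTR of exon 1 (chromosome 17, 34198249 to 34198449). It held 63.9, 87.6 and 82.1 reads in fresh fed and 64.5, 50.9 and 41.8 in fresh fasted libraries. The frozen values were 42.9, 66.9 and 49.9 in fed and 30.0, 36.6 and 37.8 in fasted mice. In frozen liver the groups were apart, and in fresh liver fasted A (64.5) lay just above the lowest fed value (63.9). The mean fell from 65.6 ± 11.9 to 43.6 ± 3.71 reads, a log2 difference of -0.58 ± 0.17 (adjusted p = 0.0288 by limma). The call was lost without fed B (-0.44, adjusted p = 0.12 by limma), fed C (0.074) or fasted A (0.063) and after quantile normalization (-0.42, adjusted p = 0.086). A second window, 537 bp before the same start, had 0.07 ± 0.15. A larger fall stood 3281 bp before Psmb8 in exon 10 of Tap1, the peptide transporter gene next to it (chromosome 17, 34194814 to 34195014). There fresh fed libraries held 164, 128 and 146 reads and fresh fasted ones 63.1, 91.4 and 35.0. In frozen liver the values were 119, 82.8 and 125 against 34.6, 59.3 and 17.8. Fasted libraries were lower than fed ones within each preparation, by -1.48 ± 0.32 on the log2 scale (adjusted p = 0.00645 by limma). The start peaks of Psmb9, which faces Tap1, and of Psmb10 had 0.08 ± 0.07 and 0.03 ± 0.08.

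Other genes of interferon signalling and class I antigen processing (10 genes, 44 peaks) had 1 higher and 16 lower peaks. Over all peaks 16.5% and 18.1% were, and the medians were -0.104 and 0.048. Only 17 of the 44 were near-start peaks, and among all distant peaks 25.4% were lower. At the gene starts of this list 0 were higher and 1 lower. The median there was -0.0044, against 0.119 over all gene start peaks within 1 kb. Away from its start, an intronic peak of Irf1, an interferon-induced factor, 5417 bp into the gene fell by 2.59 ± 0.30 on the log2 scale. An intronic peak of Nlrc5, the class I transactivator, 12701 bp after the start fell by 2.20 ± 0.20. Immune and other non-hepatocyte cells also use Psmb8, so their markers were read beside it. Of 8 macrophage genes 2 had a peak, with 0 higher and 1 lower of 2. The summed level was 119 to 161 reads in fresh fed, 81.4 to 108 in fresh fasted, 89.3 to 123 in frozen fed and 55.6 to 87.2 in frozen fasted libraries. Cd5l, Cd68, Clec4f, Marco, Timd4 and Vsig4 had no row here. Endothelial genes had 3 higher and 9 lower of 18 peaks, with sums of 1749 to 1828, 1533 to 1542, 1587 to 1733 and 1493 to 1617 reads in the same order of groups. Of the endothelial list Clec4g and Tek had no row. Stellate cell genes had 0 higher and 2 lower of 4 peaks, with sums of 339 to 421, 275 to 329, 336 to 443 and 240 to 318 reads. Acta2, Des, Lrat, Ngfr, Pdgfrb and Rgs5 of that list had no row. Bile duct genes had 1 higher and 2 lower of 12. Their sums were 1343 to 1388, 1308 to 1422, 1359 to 1403 and 1405 to 1522 reads in the same order. The only lymphocyte peak of 8 genes, at Ptprc, had a log2 difference of 0.394 and was not called. It held 143 to 162, 136 to 232, 121 to 157 and 137 to 232 reads. The part of such cells in the lower Psmb8 values was not tested. Hepatocyte genes, all 8 with peaks, had 16 higher and 9 lower of 82.

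The largest falls lay away from gene starts, as they mostly did over all peaks. A log2 difference under -1 was found at 6 of 60 peaks beyond 1 kb and at 0 of 55 within it. Over all peaks it was found at 2861 of 33996 beyond 1 kb and at 123 of 18534 within it. An intronic window 46068 bp before Psma1 (chromosome 7, 114322084 to 114322284, in intron 1 of 4933406I18Rik) held 124, 146 and 112 reads in fresh fed and 58.4, 60.8 and 59.9 in fresh fasted libraries. In frozen libraries it held 107, 158 and 121 against 56.4, 40.1 and 44.5. No fasted value reached a fed one, and the difference was -1.25 ± 0.14, the lowest p of all 115 peaks (adjusted p = 0.000334 by limma). The 3 other windows of the same intron, 46727, 47180 and 47282 bp before the start, had 0.03 ± 0.09, 0.07 ± 0.07 and 0.10 ± 0.06. None of these neighbours passed, nor did the other 6 Psma1 windows.

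Psmg3, which encodes a chaperone of the alpha ring, had 3 intergenic windows 4602, 4809 and 5656 bp downstream of its start (chromosome 5, 139821138 to 139822392). At the middle one the fresh fed libraries held 175, 139 and 172 reads and the fresh fasted ones 66.5, 94.0 and 48.6. Frozen values were 183, 220 and 195 against 61.9, 88.9 and 55.6. All 3 windows separated fasted from fed without overlap. They differed by -0.94 ± 0.15, -1.40 ± 0.17 and -1.41 ± 0.20 (adjusted p from 0.000518 to 0.00153 by limma), while the Psmg3 start peak had 0.28 ± 0.11.

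Psmd7 had a higher start peak and 3 lower distant ones. These intergenic windows lay 23821 and 109132 bp before the start and 16549 bp after it. The first (chromosome 8, 107612203 to 107612403) held 102, 81.0 and 95.3 reads in fresh fed, 27.1, 38.4 and 53.1 in fresh fasted, 36.9, 43.0 and 46.4 in frozen fed and 23.7, 20.1 and 22.2 in frozen fasted libraries. Fasted values were lower within each preparation, and the frozen fed values overlapped the fresh fasted ones. The differences were -1.08 ± 0.18, -0.59 ± 0.15 and -1.01 ± 0.17. An intergenic window 3162 bp before Psmc4 (chromosome 7, 28053154 to 28053354) held 66.9 to 87.6 reads in fed and 31.1 to 50.4 in fasted libraries, a difference of -0.76 ± 0.14. Weaker falls were called 52950 bp from Psmd6, in an intron of Atxn7, at -0.56 ± 0.14 and 58317 bp from Psmb7, in the 3' UTR of Nek6, at -0.49 ± 0.12. The former call was lost without fed A or fasted A, the latter without fed B, and that 109132 bp before Psmd7 without fed B or fasted A (adjusted p from 0.051 to 0.063 by limma).

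Higher distant windows were fewer. The largest rise lay 5015 bp before Psmd9 (chromosome 5, 123223075 to 123223275, intergenic). It held 103, 85.0 and 71.6 reads in fresh fed and 178, 147 and 193 in fresh fasted libraries, and 130, 120 and 68.3 against 253, 177 and 269 in frozen ones. All 6 fasted libraries were above all 6 fed ones, and the mean rose by 1.08 ± 0.18 from 96.2 ± 23.8 to 203 ± 36.3 reads (adjusted p = 0.00223 by limma). With a second window 3482 bp before the start at 0.62 ± 0.14 and the start peak itself, Psmd9 had 3 higher peaks of 5. Psma6 had 4 higher of 10. Its intron 6 window 16633 bp after the start (chromosome 12, 55415358 to 55415558) rose by 0.89 ± 0.16 from 45.9 ± 4.32 to 87.7 ± 15.9 reads. Intergenic windows 27634 and 28039 bp after the start rose by 0.45 ± 0.14 and 0.59 ± 0.19. The first of these was not called without any one of fed A or B or the 3 fasted letters (adjusted p from 0.054 to 0.098 by limma), nor the second without any fed letter or fasted C (0.066 to 0.13). Neither passed scaled to near peaks (0.0892 and 0.0952). A window in intron 4 of Atxn7, 49243 bp from Psmd6, rose by 0.72 ± 0.16, while the lower one named above lies in the same intron. The window 8212 bp before Psmd1 rose by 0.23 ± 0.08, a call lost without any fed letter, fasted A or fasted C (adjusted p from 0.077 to 0.13 by limma) and scaled to near peaks (0.11, adjusted p = 0.381).

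**Figure D3:**
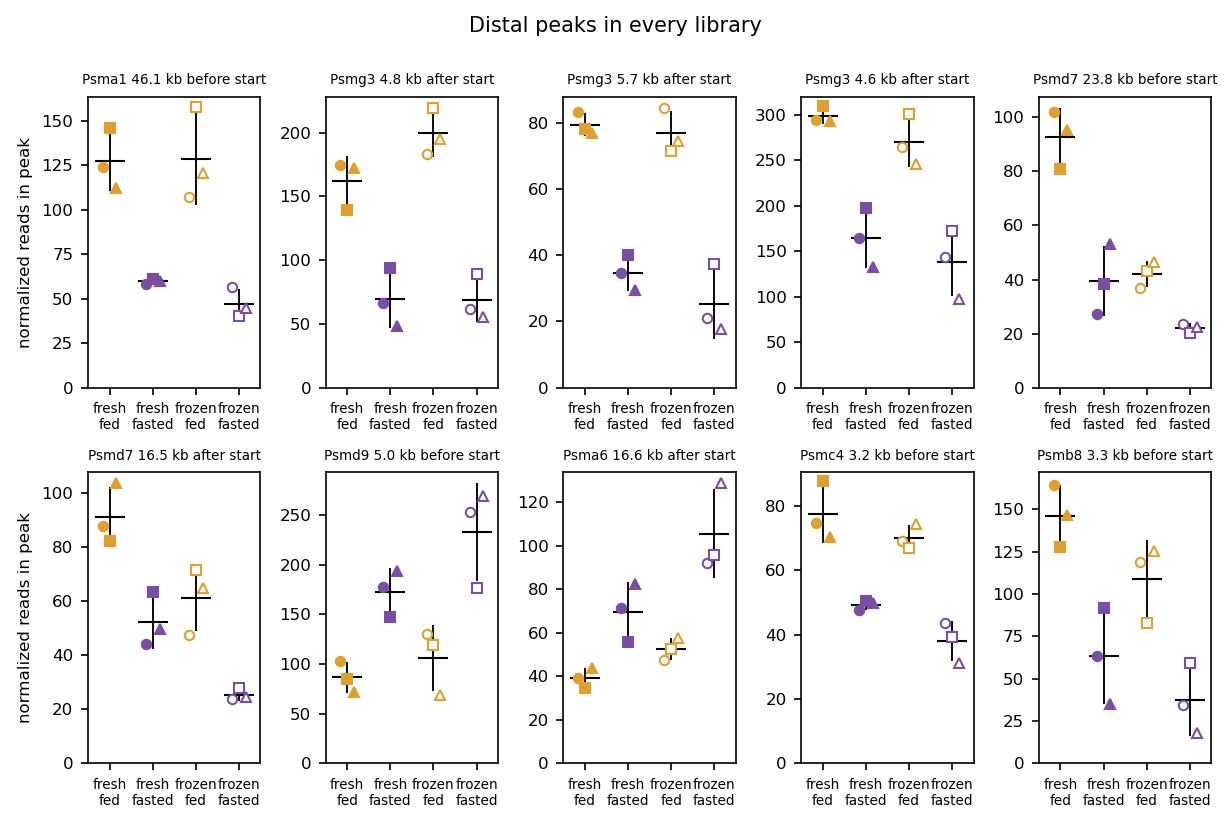
Normalized reads in the 10 windows beyond 1 kb with the lowest p for fasting, in each of the 12 libraries (circle, square and triangle for letters A, B and C, filled for fresh and open for frozen, yellow for fed and purple for fasted), with group mean and SD as bars. The windows near Psma1, Psmg3, Psmd7, Psmc4 and Psmb8 are lower in fasted mice in both preparations and those near Psmd9 and Psma6 higher.

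**Figure D4:**
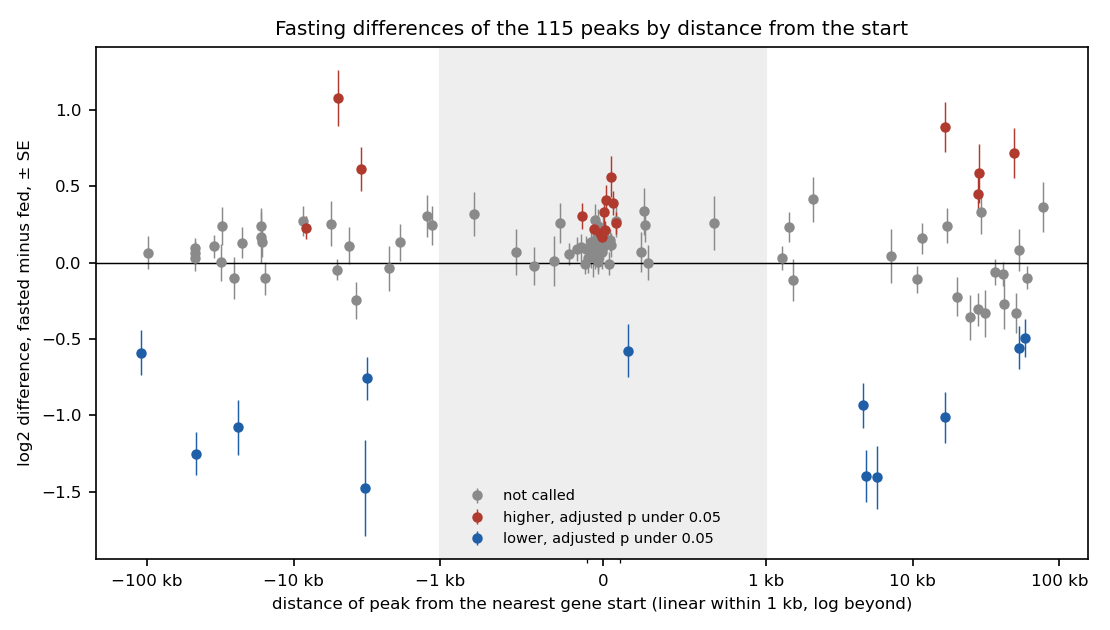
Log2 difference, fasted minus fed, with its SE, of all 115 peaks against the distance from the nearest gene start (grey band, within 1 kb). Within the band the called points are red and below 0.6 except Psmb8, and beyond it they reach from -1.48 to 1.08.

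Whether fasting acted alike in fresh and frozen liver was read from each preparation and from the test of the difference. In fresh liver 8 of the 115 peaks were higher and 11 lower, in all 16.5% against 27.6% of all peaks. In frozen liver 18 were higher and 12 lower, 26.1% against 27.8%. Both preparations come from the same mice, and 15 peaks were called in both, each in 1 direction, which is 15 of 19 and 15 of 30. The same overlap was not counted over all peaks. The fresh count of higher peaks was 4 without fed A or fed B, 3 without fasted A and 5 without fasted C, and the fresh count of lower peaks was 7 without fed B. The frozen count of higher peaks was 10 without fed A or fasted A and 6 without fed B. Calls over all 52530 peaks fell too. In fresh liver 3897, 3660, 3165 and 4878 were higher without fed A, fed B, fasted A and fasted C, in place of 6003. Without fed B 6087 were lower there, in place of 8474. In frozen liver 4413, 4116 and 3866 were higher without fed A, fasted A and fed B, in place of 6717. By adjusted p in the authors' deposited table, 6 peaks were higher and 10 lower in fresh liver and 18 and 11 in frozen liver. Of the peaks called here 16 of 19 and 29 of 30 were also called in that table, in the same direction. The deposited calls rest on the same libraries. Neither their number nor this overlap was counted over all peaks, so neither sets these genes apart.

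The difference itself, frozen minus fresh, was called at 0 of 115 peaks and 0% of all peaks by limma. At an unadjusted p under 0.05 there were 7 of the 115 and 2702 of all peaks. The member with the lowest p was the Psma5 start peak, with 0.18 ± 0.08 when fresh, 0.61 ± 0.10 when frozen and a difference of 0.43 ± 0.14 (adjusted p = 0.837 by limma). With a replicate block for the letter, which compares the preparations within a mouse, its adjusted p was 0.0302 by limma, and 395 of all peaks were called. With the same pairing fitted on frozen minus fresh differences, a form added after the data were seen, it was 0.297 and 0 peaks were called. The Psmg3 and Psma1 start peaks went the other way, with 0.54 ± 0.13 and 0.46 ± 0.14 in fresh liver. Their frozen values were 0.02 ± 0.14 and 0.09 ± 0.12. Their differences of -0.52 ± 0.17 and -0.37 ± 0.17 had adjusted p = 0.869 and 0.967 by limma. Across the 42 start peaks within 1 kb the fasting differences of both preparations had r = 0.461, given as a description since the points share mice and libraries.

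**Figure D5:**
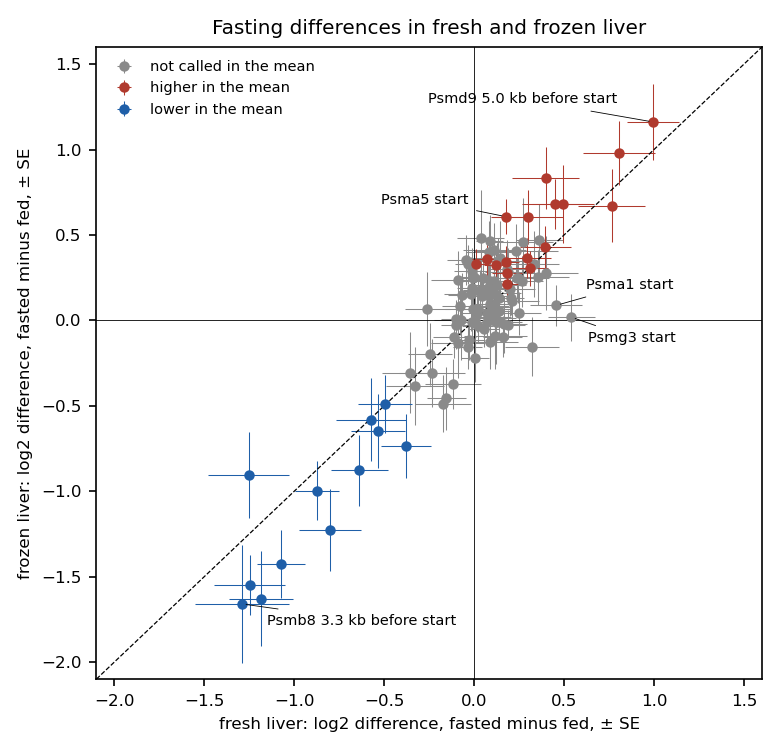
Log2 difference, fasted minus fed, in fresh (horizontal) and frozen liver (vertical), with SE, for the 115 peaks. The dashed line marks equal values, and colours mark peaks called in the mean of both. The called windows lie in the same quadrant in both preparations, and the Psma5 start lies above the line while the Psmg3 and Psma1 starts lie below it.

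The 6 frozen libraries were also set against the 6 fresh ones, with a term for feeding, to ask what the state of the tissue does at the same regions. Start regions of several 20S and 19S genes were about 2-fold higher in frozen liver while others of the same complexes fell. Within 1 kb of a start 23 of 55 peaks were higher in frozen libraries, or 41.8% against 37.6% of all such peaks, and 11 of 55 were lower, against 27.7%. Beyond 1 kb 18 of 60 were higher and 22 lower, 30.0% and 36.7% against 23.9% and 35.5%. The median difference of the 115 was -0.001, and that of all peaks -0.046. All 6 frozen libraries lay on one side of all 6 fresh ones at 41 peaks, or 35.7% against 26.9% of all. The SD of log2 values across peaks was 1.01 to 1.28 in frozen and 0.83 to 1.04 in fresh libraries, and frozen libraries held 3.69 to 9.20 M reads where fresh ones held 5.85 to 14.5 M. The part of these in the differences was not tested.

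Of the 44 gene start peaks 17 were higher and 8 lower, where 37.5% and 31.6% of all gene start peaks within 1 kb were. The largest rise was at Psmd3, where fresh libraries held 55.2 to 79.0 reads (median 66.5) and frozen ones 115 to 174 (median 149). The log2 difference was 1.10 ± 0.08. Psmb2, a structural beta subunit, held 98.6 to 110 reads (median 106) in fresh and 186 to 250 (median 213) in frozen libraries, a difference of 1.01 ± 0.07. At Psmb6 (chromosome 11, 70525230 to 70525430), whose start sequence is printed above, the ranges were 128 to 144 and 244 to 263 reads, with 0.89 ± 0.05 and the lowest p of the 115 peaks (adjusted p = 1.35e-09 by limma). None of these 3 ranges overlapped. Psmd5, Psmd12, Psma1, Psmg1, Psmd9, Psmd1, Psmc4 and Psmg3 rose by 0.96 ± 0.06, 0.94 ± 0.07, 0.89 ± 0.09, 0.79 ± 0.09, 0.73 ± 0.08, 0.71 ± 0.11, 0.54 ± 0.05 and 0.54 ± 0.11. The other 6, Psme3, Psmb9, Psmc6, Psmc2, Psme2 and Psmd2, rose by 0.22 to 0.38, and the calls of Psme2 and Psmd2 were lost after quantile normalization (adjusted p = 0.259 and 0.131 by limma) and that of Psmc2 after scaling to near peaks (0.0692).

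Lower in frozen liver were 8 start peaks. Psmb8 held 41.8 to 87.6 reads (median 64.2) in fresh and 30.0 to 66.9 (median 40.4) in frozen libraries, with -0.56 ± 0.15, a call lost after quantile normalization (-0.24, adjusted p = 0.21 by limma). Psmb4, a structural beta subunit, held 112 to 152 reads in fresh and 79.6 to 122 in frozen libraries, with -0.53 ± 0.10. Psmd4 held 370 to 431 and 231 to 341 reads without overlap, with -0.48 ± 0.07. Smaller falls stood at Psmc3, Psmd13, Psme4, Psma7 and Psmd7, from -0.34 ± 0.07 to -0.23 ± 0.07. After scaling to near peaks 16 start peaks were higher and 16 lower, and after quantile normalization 17 and 17, so the balance at starts depends on the scale. The balance over all 52530 peaks moved as well. There 12637 were higher and 20187 lower after scaling, and 14899 and 15469 after quantile normalization, in place of 15093 and 17223.

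At some genes most windows were called in 1 direction with freezing. All 3 Psmb6 windows were higher, and the one 1877 bp before the start (chromosome 11, 70523380 to 70523580) had the largest difference of the 115 peaks at 1.42 ± 0.10, from a median of 76.0 reads in fresh to 205 in frozen libraries. Psma1 had 8 higher and 0 lower of 10 windows, and Psmb7 0 higher and 6 lower of 7, with -0.86 ± 0.10 in its intron 5. Pairs of the called Psma1 windows overlap by 99, 30 and 29 bases, so the 8 are fewer separate regions. After quantile normalization the calls were lost at the Psma1 window 47282 bp before the start (adjusted p = 0.819 by limma) and at the Psmb7 windows 31132 and 58317 bp after it (0.13 and 0.216). The first was also lost scaled to near peaks (0.137), and the last without fed fresh B, fed frozen C, fasted fresh A or B or fasted frozen B (0.053 to 0.096). The window 795 bp before Psmb3 rose by 1.36 ± 0.12. The intergenic windows 27634 bp after Psma6 and 1140 bp before Psmd9 rose by 1.12 ± 0.12 and 0.89 ± 0.10. A window 11527 bp from Psmb3, at the transcript end of Pip4k2b, rose by 0.85 ± 0.09. With the replicate block 47 of the 115 peaks were higher and 38 lower, in place of 41 and 33, beside 32.2% and 37.9% of all peaks. Among the peaks followed one by one, the block brought in the start peaks of Psma5 (-0.17, adjusted p = 0.032 by limma), Psmb7 (-0.30, 0.029) and Psme1 (-0.18, 0.034). It also brought in the windows 5015 bp before Psmd9 (0.33, 0.000663) and 4602 bp from Psmg3 (-0.21, 0.0039). Its further added calls were at peaks not followed one by one. Freezing differences in fed and in fasted mice, which share no library, had r = 0.920 over the 42 start peaks within 1 kb, a description across peaks of the same libraries.

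Other genes of the pathway are given from a list. Further proteasome parts and assembly factors had 7 higher and 4 lower of 28 peaks with fasting. The start peak of Pomp, which matures the 20S core, rose by 0.29 ± 0.08 (adjusted p = 0.0218 by limma), a call lost without fed A or B or fasted A or B (adjusted p from 0.051 to 0.078). A Pomp intron window 14241 bp after the start fell by 1.70 ± 0.34 on the log2 scale. The genes of NRF1 control had 3 higher and 6 lower of 36. The Nfe2l1 start peak rose by 0.28 ± 0.08 (adjusted p = 0.025 by limma), lost without fed A, fed B or fasted C (0.055 to 0.09), and an intron window 1109 bp after the start fell by 0.50 ± 0.10. Both starts fell below the threshold when scaled to near peaks (adjusted p = 0.138 and 0.15 by limma). Genes that supply and deliver ubiquitin had 17 higher and 12 lower of 70. Ligases known from muscle wasting had 7 higher and 0 lower of 19, of which 5 were at Fbxo31. The median differences of these 4 lists were 0.116, 0.0266, 0.143 and 0.216 against 0.048 over all peaks. Over all peaks 16.5% were higher and 18.1% lower with fasting. With freezing the lists had 6 higher and 14 lower of 28, 18 and 8 of 36, 33 and 9 of 70, and 10 and 3 of 19, where 28.7% and 32.8% of all peaks were.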

How the data were processed

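ATAC-seq libraries of bead-bound hepatocyte nuclei were treated with transposase for 30 min at 37 °C, per the labels' protocols, and 12 cycles of PCR followed. The submitters' processing notes name the build mm10 and the tools HOMER, DESeq2, SAMtools and BWA 0.7.5a-r405, without saying what each did. How peaks were called, and how duplicates and the transposase offset were treated, is not given in the sources used here. The authors deposited a table of 52530 peaks whose signal columns hold normalized reads per 200 bp window for 12 libraries. Per the file headers it also gives the distance to the nearest gene start and, for each preparation, the authors' adjusted p-values and log2 fold changes for fasting, whose method is not stated. A peak score, deposited by the authors without a definition, was not used.

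No peak was left out. The fits used limma 3.58.1 (R 4.3.3) on log2(value + 1), with a variance prior that follows the mean level. Tests were two-sided, with Benjamini-Hochberg adjustment across the table and a threshold of 0.05. Log2 differences understate the change of low peaks. The values are whole multiples of 1 step per library, from which depth was read, with the step taken as 1 read. Since that the step is 1 read is only assumed, no count model was used. The intervals of counting error leave out PCR copies. Labels name 6 mice by number, while columns carry letters that match no number. Columns of one letter and feeding state deviated together (r from 0.329 to 0.640 in 6 pairs, highest other r 0.102), all above 0.1, so they were averaged as 1 mouse. The pairing thus comes from the data. Freezing and the difference between preparations were fitted on 12 libraries, with the letter as a block as an alternative. The fit was also run on simulated data. Those libraries were drawn independently with no effect of the mouse, so that run does not test the pairing.

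The members and the gene and marker lists were chosen with earlier results of these data known. Named peaks were, per role, up to 3 called start peaks for fasting and for freezing, 13 fixed genes, the 10 distant windows of lowest p for fasting and 5 for freezing. Others named here were chosen after their values were seen. Alternatives were pseudocounts of 0.5 and 5, leaving out the lowest 25% of peaks, scaling to near-start peaks, quantile normalization, start peaks only, all columns without pairing, the block, and leaving out each replicate.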

Additional observations from a re-analysis of the deposited data

How the results depend on the processing

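Counts of proteasome gene peaks moved by more than 1.5 times in the following cases, and the cause was not tested except where fewer peaks were counted. Without the lowest 25% of peaks, which removes low windows, 6 were lower for the fasting mean, 3 higher and 5 lower in fresh, 5 lower in frozen liver and 21 lower for freezing. Over all 39397 peaks kept these counts were 5310, 4200, 4471, 4495 and 10716. Scaled to near-start peaks, 7 were higher for the mean, 4 in fresh and 6 in frozen liver. Over all peaks 4065, 2952 and 3436 were higher, in place of 8678, 6003 and 6717. After quantile normalization 16 were higher in fresh liver, and 8194 of all peaks. Over start peaks only, the counts were 10 higher and 1 lower for the mean, 4 and 1 in fresh, 10 and 0 in frozen liver and 17 and 8 for freezing. With all 12 columns and no pairing 31 were higher, and 13222 of all peaks. Leaving out 1 mouse gave 8 to 15 higher for the mean, 3 to 8 higher and 7 to 11 lower in fresh and 6 to 16 higher in frozen liver. Over all peaks these counts were 4939 to 8053, 3165 to 5887, 6087 to 8755 and 3866 to 6075. The replicate block called 1 peak, Psma5, for the difference between preparations, brought in the 5 freezing calls named in the report and changed no other call of a named peak. Its form fitted on differences within letters was chosen after seeing the data. Of single-peak results and start-peak counts, 107 lost and 35 gained a call, 32 counts moved and 1 called value changed sign, against 2177 that stayed. That was the freezing difference of the window 24712 bp from Psmg4, which was 0.009043 after quantile normalization (adjusted p = 0.958 by limma), and the cause was not tested. Depth limits small differences: the median peak of the shallowest library had a counting error of 12.9%.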
